A study of Litchi chinensis with 18 samples.

Results

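The carpel of the functionally female litchi flower (F-carpel) was compared with the stamen of one kind of functionally male flower (m-stamen), the organs that carry the egg side and the pollen side of reproduction in this tree. The comparison uses 6 of the 18 RNA-seq libraries of the study, chosen by their labels: 3 of F-carpel and 3 of m-stamen. All samples came from full-bloom flowers of the cultivar ‘Feizixiao’ (Litchi chinensis), and no group was treated. The female flower (F) has a developed carpel and rudimentary stamens. The male flower written with a lower-case m has working stamens and a rudimentary pistil that can still be seen, and the male flower written with a capital M has a pistil that is hardly visible. Carpels and stamens of each flower type were detached and sequenced apart, so the other 12 libraries hold F-stamen, m-carpel, M-carpel and M-stamen. The study's methods describe triplicate samples from the north, south, east and west sides of the tree. Neither they nor the labels say whether replicates came from separate trees or pools of flowers, so p-values measure only the spread between these samples. A whole organ was sequenced, and fewer cells of a type cannot be told apart from less RNA per cell.

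A carpel encloses the ovules and carries the style and stigma, and after fertilization it becomes the fruit. A stamen consists of a filament and an anther, in which pollen matures until the anther opens. Floral organ identity follows the ABCDE model, in which MADS-box transcription factors act in combinations: B-class proteins with C-class proteins specify stamens, C-class proteins alone specify carpels, D-class proteins specify ovules, and E-class (SEPALLATA) proteins take part in all of these complexes. Mature pollen stores transcripts for the growth of the pollen tube, which needs proton pumps, sugar uptake, actin, calcium signals and enzymes that remodel pectin.

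For each gene 2 values are given. FPKM, a fragment count scaled to transcript length and library size, was calculated by the authors and is used for levels, also between genes. The log2 fold change was fitted here to the read counts with edgeR, is F-carpel over m-stamen (positive values are higher in F-carpel), and is given with its standard error. A locus was called when its Benjamini-Hochberg adjusted p-value (FDR) lay below 0.01 and its log2 fold change was 1 or more in size. Counts were summed over the gene models of a locus, and functions are those of the table's annotation by sequence similarity. The libraries held 30078497 to 31866235 counts in F-carpel and 29812987 to 32302522 in m-stamen. The 100 most counted loci took 11.8% to 12.5% of the counts in F-carpel and 16.8% to 17.3% in m-stamen. The trimmed mean (TMM) scaling of edgeR lowered F-carpel against m-stamen, so that a log2 fold change lies about 0.48 below the log2 ratio of the FPKM values.

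Of 24666 loci tested, 11833 (48%) were called, 5768 (23.4%) higher in F-carpel and 6065 (24.6%) higher in m-stamen. Among the 15 pairs of organs this was the largest number of calls, and the others ranged from 3242 (13.1%, M-stamen against m-stamen) to 10196 (41.3%, m-carpel against m-stamen). Large differences lay more often on the stamen side: 1705 called loci were higher in m-stamen by at least 5 on the log2 scale and 723 were higher in F-carpel by as much. Under scaling by library totals alone, 12546 loci were called, of which 64.0% were higher in F-carpel in place of 48.7%. At a mean of 1 FPKM or more in m-stamen, 410 loci had no count in any F-carpel library, and 206 had none in m-stamen at that mean in F-carpel.

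**Figure D1:**
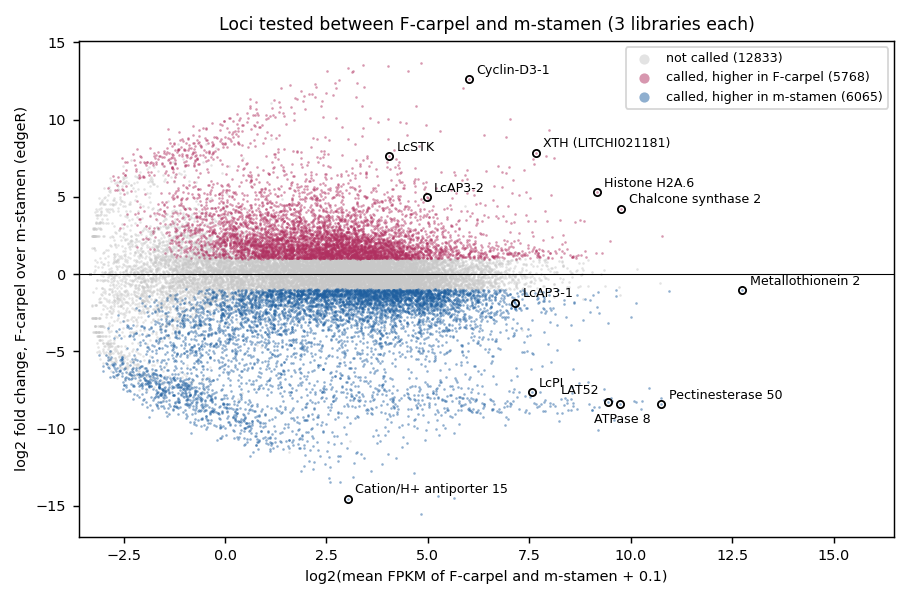
Each point is 1 of the 24666 tested loci, with the log2 of the mean FPKM of the 2 organs plus 0.1 on the horizontal axis; the vertical axis is the fitted log2 fold change, F-carpel over m-stamen. Called loci are red (5768, higher in F-carpel) and blue (6065, higher in m-stamen); the blue points at large negative fold changes include LAT52 (LITCHI013059, -8.26), ATPase 8 (LITCHI016279, -8.38) and Pectinesterase 50 (LITCHI020207, -8.44).

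Marker genes were read beside the organ labels. The 2 genes of the stamen identity list are no independent check, because the study proposes a stamen role of LcAP3-1 from its expression data. Both genes of the stamen identity list, LcPI and LcAP3-1, were higher in m-stamen, where their summed level was 565 to 599 FPKM against 77.8 to 84.1 FPKM in F-carpel. The list leaves out the further B-class gene LcAP3-2 (LITCHI010203), which was higher in F-carpel, with means of 61.4 against 1.37 FPKM. The 21 loci annotated as genes of mature pollen summed to 6455 to 6653 FPKM in m-stamen and to 45.0 to 49.9 FPKM in F-carpel, and 18 of the 19 tested were called higher in m-stamen. The summed level in F-stamen, the stamen described as rudimentary, was 5644 to 5786 FPKM, and in M-stamen 2425 to 2743 FPKM. Of 12 carpel markers 11 were tested. Of these, 6 were called higher in F-carpel and 1 higher in m-stamen, beside 23.4% and 24.6% of all loci tested. The 12 summed to 195 to 205 FPKM in F-carpel and 84.8 to 88.2 FPKM in m-stamen. In m-carpel the sum was 135 to 138 FPKM and in M-stamen 137 to 151 FPKM, so it did not part all carpels from all stamens. CRABS CLAW (LITCHI005346), a carpel gene of the YABBY family in Arabidopsis, was not among the 6: it was at 15.8, 20.3 and 17.7 FPKM in F-carpel and 24.8, 23.8 and 27.1 FPKM in m-stamen, with a log2 fold change of -0.98 ± 0.19. The 19 tapetum loci were low in both organs, at summed levels of 61.2 to 62.5 and 49.5 to 51.4 FPKM. In the green tissue list, 11 of 17 tested loci were higher in F-carpel, and the summed level was 840 to 956 FPKM there against 216 to 230 FPKM in m-stamen.

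**Figure D2:**
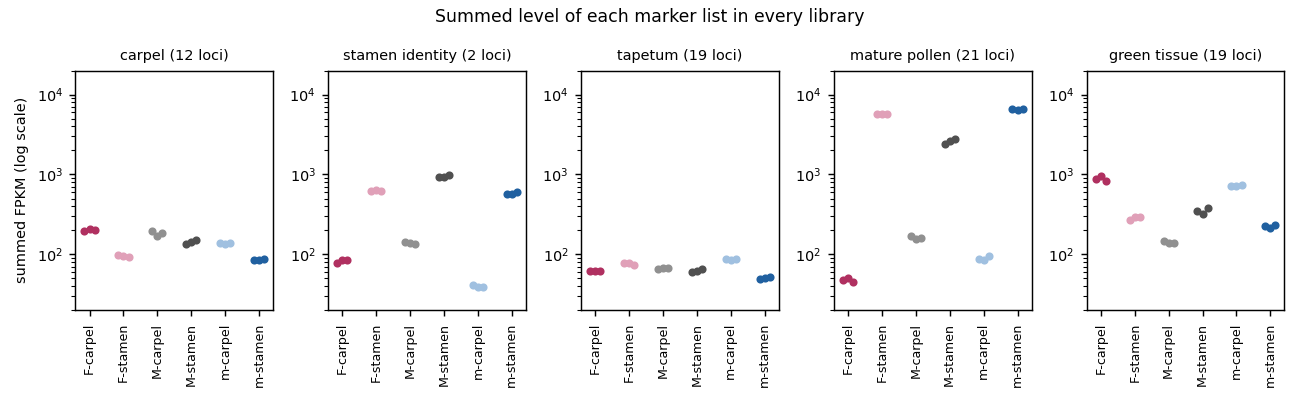
Each panel gives the summed FPKM (log scale) of 1 marker list in each of the 18 libraries, 3 points per organ. The mature pollen list separates the organs most: 45.0 to 49.9 FPKM in F-carpel, 6455 to 6653 FPKM in m-stamen and 5644 to 5786 FPKM in F-stamen.

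Floral MADS-box genes act at the top of organ identity. Among the 11 genes of the ABCDE classes, all of which were tested, 5 (45.5%) were called higher in F-carpel and 4 (36.4%) higher in m-stamen (5 and 2 under library totals). The other 2 were not called. Over all loci tested the shares were 23.4% and 24.6%. The B-class gene LcPI (LcMADS50, LITCHI011302), a homologue of PISTILLATA, was at 3.31, 2.86 and 1.65 FPKM in F-carpel and 365, 368 and 389 FPKM in m-stamen (log2 fold change -7.64 ± 0.16, FDR = 3.5e-17). The 2 organs did not overlap, and LcPI was also high in the other stamens, with means of 409 FPKM in F-stamen and 643 FPKM in M-stamen. The 2 copies of its partner AP3 differed in opposite directions. LcAP3-1 (LcMADS75, LITCHI006530) was at 74.5, 81 and 82.4 FPKM in F-carpel and 207, 197 and 210.0 FPKM in m-stamen (log2 fold change -1.86 ± 0.05, FDR = 1.1e-15). LcAP3-2 (LcMADS45, LITCHI010203) was at 59.2, 62.2 and 62.9 FPKM in F-carpel and 1.5, 1.49 and 1.13 FPKM in m-stamen (log2 fold change 4.98 ± 0.17, FDR = 2e-14). In the other 4 organs the mean of LcAP3-2 was 2.27 to 7.77 FPKM, so F-carpel stood above all of them, whereas LcAP3-1 was at 35.9 to 306 FPKM there.

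Because the 2 AP3 copies moved apart, the start of their coding sequences is shown, as the study lists it; capitals mark the bases at which the copies differ within the first 120, of which 99 are identical and 21 differ.
LcMADS75 (LcAP3-1): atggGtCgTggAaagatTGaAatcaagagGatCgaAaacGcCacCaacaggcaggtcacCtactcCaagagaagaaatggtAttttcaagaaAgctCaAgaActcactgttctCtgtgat
LcMADS45 (LcAP3-2): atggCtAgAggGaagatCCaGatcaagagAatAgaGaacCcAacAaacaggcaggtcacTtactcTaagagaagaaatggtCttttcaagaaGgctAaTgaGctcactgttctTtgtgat
The longest stretch without a difference between the 399 bases listed for each gene was 15 bases, so that reads of one copy differ from the other copy throughout this part of the gene. The bases shown code for the start of the MADS domain, which binds DNA.

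Of the genes for the inner organs, LcSTK (LcMADS51, LITCHI011705), a D-class homologue of SEEDSTICK that acts in ovules, was at 33.3, 30.6 and 34.7 FPKM in F-carpel and 0.183, 0.073 and 0.0792 FPKM in m-stamen (log2 fold change 7.62 ± 0.26, FDR = 2.4e-14). Its mean was 7.85 FPKM in m-carpel and 0.743, 1.12 and 0.413 FPKM in F-stamen, M-carpel and M-stamen. LcSHP (LcMADS11, LITCHI026995) was higher in F-carpel by a smaller step, at 23.9, 27.5 and 27.3 against 8.11, 10.5 and 9.27 FPKM (log2 fold change 1.01 ± 0.09); with DESeq2 it was at 0.98 and not called. The C-class gene LcAG (LcMADS65, LITCHI028933) was at 72.5, 70 and 72 FPKM in F-carpel and 61.8, 62.8 and 64.9 FPKM in m-stamen. Its log2 fold change of -0.31 ± 0.04 lies under the minimum for a call, and its sign turned under library totals (0.16). LcAP1 (LcMADS95, LITCHI005352), of the A class, was low in both, at 2.59, 2.44 and 3.05 and 5.09, 5.42 and 3.56 FPKM (log2 fold change -1.29 ± 0.17; -0.81 and not called under library totals).

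The 4 E-class genes differed from each other. LcSEP2 (LcMADS94, LITCHI005351) was at 6.48, 6.21 and 7.6 FPKM in F-carpel and 0.159, 0.119 and 0 FPKM in m-stamen (log2 fold change 5.61 ± 0.52, FDR = 2.5e-08). LcSEP4 (LcMADS73, LITCHI023328) was at 47.6, 46.3 and 45.9 and 8.68, 8.25 and 7.21 FPKM (log2 fold change 2.04 ± 0.08, FDR = 1.9e-13), and its means in M-carpel and m-carpel, 115 and 142 FPKM, were above that of F-carpel. LcSEP3 (LcMADS91, LITCHI004634) was higher in m-stamen, at 133, 138 and 141 against 92, 94 and 89.9 FPKM (log2 fold change -1.06 ± 0.04; -0.59 and not called under library totals). LcSEP1 (LcMADS100, LITCHI019333) was at 154, 156 and 155 FPKM in F-carpel and 118, 151 and 157 FPKM in m-stamen, the 2 organs overlapped, and it was not called (log2 fold change -0.35 ± 0.07, 0.12 under library totals). LcActin (LITCHI007623), the reference gene of the study, was at 339, 358 and 322 and 289, 296 and 310.5 FPKM (log2 fold change -0.30 ± 0.05, 0.17 under library totals).

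**Figure D3:**
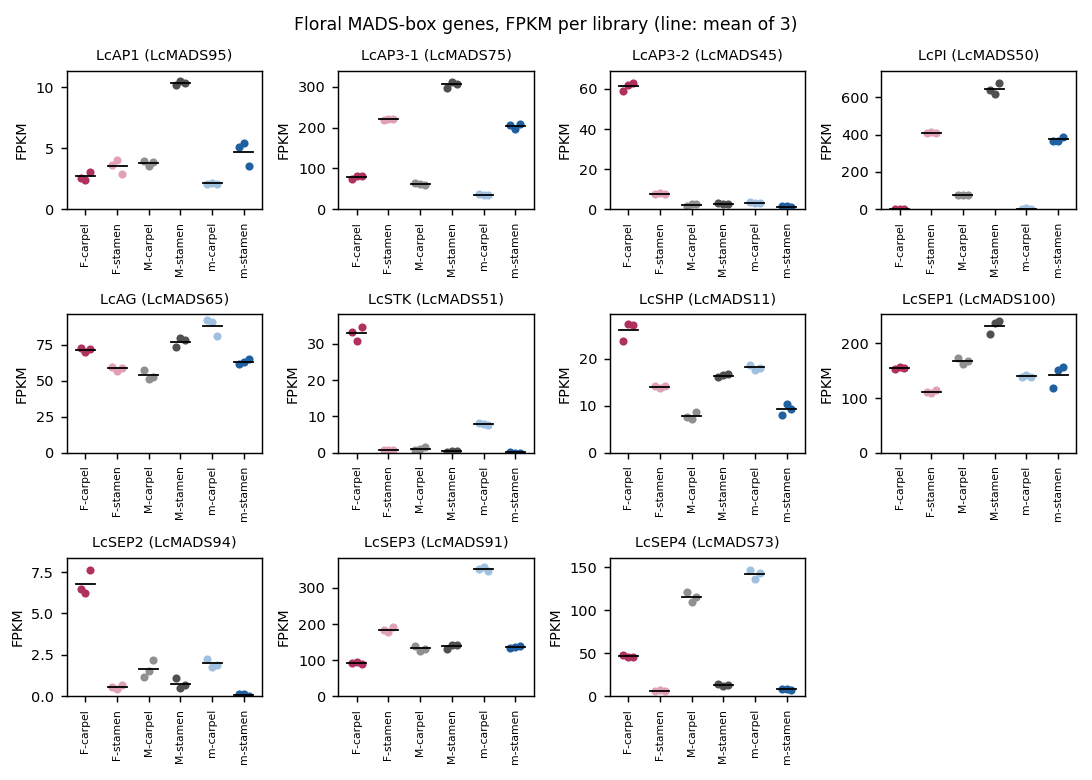
FPKM of the 11 floral MADS-box genes in each of the 18 libraries, with a line at the mean of 3. LcAP3-2 and LcSTK are highest in F-carpel, LcPI and LcAP3-1 are high in all 3 stamens, and LcAG (LITCHI028933) lies between 51.2 and 92.1 FPKM in every library.

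Beyond the floral classes, 42 of 96 named LcMADS loci were tested, 8 were higher in F-carpel and 21 higher in m-stamen, the floral genes included. LcMADS46 (LITCHI010419), annotated as AGL104, a gene of pollen maturation in Arabidopsis, was at 0, 0.0879 and 0 FPKM in F-carpel and 43.3, 47.1 and 44.4 FPKM in m-stamen. LcMADS47 (LITCHI010424), named here after its value was seen, was at 0.309, 0.0815 and 0.113 and 50.6, 54.1 and 52.8 FPKM. The 2 genes share a run of 272 identical bases among the 399 listed for each, so the split of counts between them is uncertain, but both were near 0 in F-carpel.

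The largest differences among well-counted loci (a mean of at least 32 CPM, counts scaled to library size, over the 6 libraries) on the m-stamen side were genes that F-carpel lacked almost wholly. Cation/H+ antiporter 15 (LITCHI027409), an ion exchanger, had no count in F-carpel and 15.6, 14.6 and 18 FPKM in m-stamen, at least 2543-fold higher when 3 counts over the group are taken as the floor. The loci newGene_2407 and newGene_2406, which carry no Swiss-Prot name, had none in F-carpel and 92.6, 99.8 and 107 and 90.8, 75.8 and 62.6 FPKM in m-stamen, at least 2528-fold and 2307-fold higher. Pleiotropic drug resistance protein 1 (LITCHI030748), an ABC transporter, was at 33.1, 39.1 and 38 FPKM against 0.0118, 0.0243 and 0 FPKM (log2 fold change -11.93 ± 0.25). YUCCA2 (LITCHI006663), an enzyme of auxin synthesis, was at 28.6, 30.7 and 32.5 FPKM against 0.0635, 0.0227 and 0 FPKM (log2 fold change -10.43 ± 0.42). Protein DMP10 (LITCHI003901), patatin-like protein 2 (LITCHI011071), a lipid hydrolase, and CNGC16 (LITCHI022356), an ion channel that protects pollen under heat in Arabidopsis, had log2 fold changes of -10.41, -10.39 and -10.16. These loci were picked among called loci by the size of their fall, so their calls and near absence in F-carpel follow from the choice.

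The locus with the largest fitted fall, long chain base biosynthesis protein 2a (LITCHI020813), a subunit of the enzyme that starts sphingolipid synthesis, varied between replicates of other organs. It was at 58, 60.3 and 52.9 FPKM in m-stamen and at 0 in all 9 carpel libraries. In F-stamen it was at 56.6, 45.6 and 0 FPKM and in M-stamen at 0, 39 and 0 FPKM, so replicates of the same organ went from 0 to 56.6 FPKM in F-stamen, and its standard error was 4.30 on the log2 scale with an FDR of 0.00668. In F-carpel or m-stamen, 69 tested loci had such a split, no count in 1 library and at least 100 in another of the same organ, and 4 of them were called.

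On the F-carpel side the largest difference was in a gene of the cell cycle. Cyclin-D3-1 (LITCHI001557), a D-type cyclin that drives entry into the cell cycle, was at 131, 132 and 127 FPKM in F-carpel and 0, 0.0372 and 0 FPKM in m-stamen. The m-stamen value rests on 2 counts in all, and the ratio of counts, scaled to library size, was 9938 with a 95% counting interval of 2751 to 82067. Cytochrome P450 78A5 (LITCHI028690), which promotes organ growth in Arabidopsis, was at 117, 120.1 and 114 FPKM and 0, 0.0491 and 0 FPKM (log2 fold change 12.03 ± 0.51). The transcription factor bHLH96 (LITCHI003914) was at 50.9, 56.2 and 49.1 and 0, 0.0447 and 0 FPKM, and the receptor-like kinase FEI 1 (LITCHI022215), which acts in cell wall synthesis in Arabidopsis roots, at 18.9, 22.1 and 21.2 and 0.0195, 0 and 0 FPKM. All 4 were at or near 0 in m-stamen.

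ANT (LITCHI007109), an AP2 factor of ovule and organ growth in Arabidopsis, was at 28.2, 27.2 and 26 FPKM in F-carpel and 0.029, 0.0286 and 0 FPKM in m-stamen (log2 fold change 9.87 ± 0.50, FDR = 5.8e-12). An auxin transporter-like protein 5 (LITCHI002002), of the family of auxin uptake carriers, was at 37.6, 41.1 and 39 and 0.023, 0.0641 and 0 FPKM (log2 fold change 9.83 ± 0.54). A thaumatin-like protein (LITCHI023086) was at 262, 269 and 248 and 0.193, 0.184 and 0.134 FPKM (log2 fold change 10.01 ± 0.32). Pectinesterase 68 (LITCHI022790), Ribonuclease 1 (LITCHI002860) and the ankyrin repeat protein NPR4 (LITCHI012791) had log2 fold changes of 10.02, 9.63 and 9.42. In each of these 10 genes the lowest F-carpel library was at least 18.9 FPKM and the highest m-stamen library at most 0.193 FPKM. The 10 were picked by the size of their rise in these libraries, so this separation follows from the choice.

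By level, the most abundant called genes of F-carpel were newGene_3330, which has no Swiss-Prot name, at 2722, 2900 and 3576 against 416, 375 and 411 FPKM, and chalcone synthase 2 (LITCHI015108), the entry enzyme of flavonoid synthesis, at 1636, 1793 and 1621 against 63.2, 63.8 and 65 FPKM (log2 fold change 4.23 ± 0.06, FDR = 1.7e-19). They were followed by a peptidyl-prolyl cis-trans isomerase (LITCHI001974, log2 fold change 2.15 ± 0.06), histone H2A.6 (LITCHI024849) at 1105, 1182 and 1116 against 21.8, 21.5 and 18.1 FPKM, and the ribosomal protein L37-3 (LITCHI017117, log2 fold change 1.37 ± 0.08). In m-stamen the most abundant was a metallothionein-like protein type 2 (LITCHI024888), a metal-binding protein, at 8537, 7770 and 8260 against 5577, 5739 and 5517 FPKM. It was abundant in both organs, and its log2 fold change of -1.03 ± 0.05 was -0.56 and not called under library totals. The next 4 were far lower in F-carpel but present there: Pectinesterase 50 (LITCHI020207) at 3390, 3487 and 3471 against 11.9, 15.6 and 14.3 FPKM, the polygalacturonase newGene_82 at 2941, 3742 and 3630 against 18.9, 17 and 18.2 FPKM, LITCHI012903, with the Pfam domain of Ole e I pollen proteins, at 2694, 2719 and 2902 against 22.9, 27.3 and 18.7 FPKM, and an L-ascorbate oxidase homologue (LITCHI029916) at 2416, 2552 and 2474 against 11.5, 13.4 and 10.1 FPKM.

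Genes of pollen and of the pollen tube were then taken as groups. Of 55 tested loci of pollen tube signalling, 31 (56.4%) were higher in m-stamen and 11 (20%) higher in F-carpel, beside 24.6% and 23.4% of all loci tested, and the median log2 fold change was -1.46 beside 0.00 over all loci. LAT52 is a secreted protein of pollen that tomato pollen tubes need. Its copy LITCHI013059 was at 1426, 1371 and 1358 FPKM in m-stamen and 5.82, 6.83 and 6.26 FPKM in F-carpel (log2 fold change -8.26 ± 0.13, FDR = 4.9e-19), and the copy LITCHI012895 at 737, 699.8 and 757 and 3.47, 4.91 and 2.75 FPKM (log2 fold change -8.10 ± 0.20). The receptor kinase ANXUR1 (LITCHI003619), which keeps the pollen tube intact in Arabidopsis, was at 182, 204 and 196 and 0.359, 0.771 and 0.8 FPKM, and pollen receptor-like kinase 4 (LITCHI031187) at 146, 156 and 152 and 0.507, 0.524 and 0.351 FPKM. The members higher in F-carpel included 2 Rop guanine nucleotide exchange factors, which activate small GTPases in many cell types: LITCHI010029 at 32.1, 32.3 and 32.1 against 0.686, 0.75 and 1 FPKM and LITCHI002079 at 34.3, 35.4 and 34.1 against 3.37, 3.68 and 3.27 FPKM.

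Over all 21 pollen markers the summed level was 84.6 to 96.0 FPKM in m-carpel and 156 to 171 FPKM in M-carpel, beside 45.0 to 49.9 FPKM in F-carpel. The LAT52 copy LITCHI008126 was present in both organs, at 11.5, 11 and 10.1 FPKM in F-carpel and 59.4, 55.8 and 56.4 FPKM in m-stamen.

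Of 87 tested loci of the actin cytoskeleton, 32 (36.8%) were higher in m-stamen and 16 (18.4%) in F-carpel (28 and 24 under library totals). Over all loci tested the shares were 24.6% and 23.4%. An actin-depolymerizing factor (LITCHI022130) was at 415, 408 and 409.9 FPKM in m-stamen and 1.78, 1.13 and 1.4 FPKM in F-carpel, and the actin-bundling PLIM2b (LITCHI025705) at 431, 427 and 431 and 3, 3.52 and 2.5 FPKM (log2 fold changes -8.63 ± 0.14 and -7.64 ± 0.11). A profilin (LITCHI017231) went the other way, at 74.4, 72.2 and 70 FPKM in F-carpel and 16.9, 17.7 and 15.9 FPKM in m-stamen (log2 fold change 1.61 ± 0.11), as did actin-related protein 4 (LITCHI023212), a nuclear protein, at 59.7, 59.7 and 62.4 and 17, 17.9 and 16.2 FPKM. Of 147 tested calcium sensors and kinases, 47 (32%) were higher in m-stamen and 11 (7.48%) in F-carpel (32 and 21 under library totals). The first share lay above the 24.6% of all loci tested and the second below the 23.4%. Calls in either direction made up 39.5% of this list, less than the 48% of all loci tested. The CBL-interacting kinases LITCHI029021 and LITCHI031097 had means of 166 ± 3.93 and 356 ± 3.45 FPKM in m-stamen against 0.615 ± 0.0578 and 106 ± 3.1 FPKM in F-carpel (SD, n = 3). On the F-carpel side, calcium-dependent protein kinase 13 (LITCHI018207) was at 32.5, 34.8 and 31 against 7.6, 7.96 and 7.74 FPKM.

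Transport genes lay mostly on the m-stamen side. Of 85 tested loci of sugar transport and invertases, 50 (58.8%) were higher in m-stamen and 8 (9.41%) in F-carpel, with a median log2 fold change of -1.72. Loci with no count in one organ enter a median with a fitted value, and with them at their bound it was -1.74. The sucrose transporter SUC2 (LITCHI011603), which loads sucrose together with protons, was at 839, 836 and 826 FPKM in m-stamen and 8.24, 8.53 and 9.19 FPKM in F-carpel (log2 fold change -7.08 ± 0.09, FDR = 5.6e-20). SWEET1 (LITCHI011333), a sugar carrier, was at 448, 421 and 466 and 73.1, 73 and 69.6 FPKM (log2 fold change -3.12 ± 0.05), and of 17 tested SWEET loci 9 were higher in m-stamen and 2 in F-carpel. Sucrose synthase 2 (LITCHI014453) was at 8.36, 7.13 and 7.08 FPKM in F-carpel and 1.09, 0.89 and 0.78 FPKM in m-stamen. Of 210 tested loci of ion and water transport, 97 (46.2%) were higher in m-stamen and 32 (15.2%) in F-carpel, with a median of -1.05 (-1.08 with the loci at their bound). The plasma membrane proton pump ATPase 8 (LITCHI016279), of a type expressed in pollen in Arabidopsis, was at 1655, 1743 and 1669 FPKM in m-stamen and 7.3, 7.42 and 6.56 FPKM in F-carpel (log2 fold change -8.38 ± 0.08), whereas ATPase 10 (LITCHI029867) was at 70.5, 73.8 and 73.2 FPKM in F-carpel and 20.6, 21.8 and 19.6 FPKM in m-stamen (log2 fold change 1.32 ± 0.07).

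Cell wall genes were split by family. Of 131 tested pectin-modifying enzymes, 64 (48.9%) were higher in m-stamen and 30 (22.9%) in F-carpel, with a median log2 fold change of -1.32. Polygalacturonases, which cut pectin, counted 25 higher in m-stamen and 10 in F-carpel of 43 tested, and pectinesterases with their inhibitors 29 and 16 of 64. Pectinesterase inhibitor 3 (LITCHI017488) and Pectinesterase 3 (LITCHI029889) were the most abundant called members on the F-carpel side. The inhibitor was at 81.2, 91.1 and 77.5 against 5.04, 4.8 and 4.15 FPKM, and Pectinesterase 3 was at 106, 108 and 99.2 against 26.9, 28.2 and 29.1 FPKM. Xyloglucan endotransglucosylase/hydrolases (XTH), which rejoin the xyloglucan of the wall, gave the most abundant called members on both sides of the list of expansins, XTHs and cellulose synthases. The neighbouring identifiers LITCHI021181 and LITCHI021180 were at 398, 409 and 402 and 202, 222 and 206 FPKM in F-carpel and at 0.927, 1.08 and 1.65 and 1.11, 1.32 and 1.15 FPKM in m-stamen (log2 fold changes 7.86 ± 0.13 and 6.96 ± 0.09). LITCHI020029 and LITCHI007126 were higher in m-stamen, at 141, 139 and 143 and 177, 173 and 185 FPKM against 10.1, 8.19 and 10.5 and 40.7, 41.2 and 38.7 FPKM. In all, 12 of 24 tested XTH loci (50%) were higher in m-stamen and 4 (16.7%) in F-carpel. In the whole list of 83 tested loci the counts were 31 (37.3%) and 21 (25.3%), and 25 and 28 under library totals. Over all loci tested the shares were 24.6% and 23.4%. Reads of close copies such as these, the LAT52 genes or the histones may have been split between loci, which was not tested.

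Of 28 tested arabinogalactan proteins, surface glycoproteins of the wall, 11 (39.3%) were higher in m-stamen and 5 (17.9%) in F-carpel (7 and 7 under library totals). Over all loci tested the shares were 24.6% and 23.4%. Fasciclin-like members were high in m-stamen: LITCHI031698 at 774, 770.5 and 751 against 3.48, 2.97 and 2.1 FPKM (log2 fold change -8.54 ± 0.17) and LITCHI020982 at 778, 748 and 768 against 132, 136 and 141 FPKM. Others were high in F-carpel: LITCHI025574 at 82, 83.1 and 78.7 against 2.98, 3.15 and 3.27 FPKM and LITCHI013704 at 94.2, 93.6 and 95.1 against 13.4, 13.9 and 15.4 FPKM. Of 17 tested lipid-transfer proteins, 4 (23.5%) were higher in m-stamen, near the share over all loci, and 2 (11.8%) in F-carpel. LITCHI018043 was at 551, 537 and 570.3 FPKM in m-stamen against 26.7, 27.4 and 23.7 FPKM in F-carpel. LITCHI001181 was at 114, 126 and 106 FPKM in F-carpel against 8.1, 6.34 and 7.37 FPKM in m-stamen. The list of tapetum and pollen wall genes, active before pollen is mature, had 4 of 20 tested loci (20%) higher in m-stamen and 3 (15%) in F-carpel. Both shares lay below those over all loci. Under library totals 4 were higher in F-carpel and 3 in m-stamen. Its members were low, for example CYP704B1 (LITCHI005202) at 7.28, 8 and 9.01 against 4.61, 4.59 and 5.04 FPKM, which was at -0.78 and not called under library totals.

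F-carpel was higher for genes of the chromosomes and of cell division. Of 35 tested histones, 30 (85.7%) were higher in F-carpel and 1 in m-stamen, beside 23.4% and 24.6% of all loci, and their median log2 fold change was 2.97. H2A.6 (LITCHI024849) had a log2 fold change of 5.30 ± 0.10 (FDR = 5.1e-18). H2B.3 (LITCHI018704) was at 784, 853 and 794 FPKM in F-carpel and 49.7, 48.3 and 53.7 FPKM in m-stamen. The exception, H2B.2 (LITCHI024565), was at 0.168, 0.479 and 0 and 2.29, 1.91 and 1.65 FPKM. Of 155 tested loci of the cell cycle and DNA replication, 87 (56.1%) were higher in F-carpel and 15 (9.68%) in m-stamen, with a median of 1.40 (1.39 with the loci at their bound). All 7 MCM factors, the helicase subunits that license replication, were higher in F-carpel, as were 41 of 77 kinesins, motor proteins of the spindle and of transport along microtubules, and 26 of 52 cyclins. A regulatory subunit of cyclin-dependent kinases (LITCHI024572) was at 116, 129 and 119.9 against 36, 32.6 and 30.6 FPKM. Aurora-2 (LITCHI023280), a mitotic kinase, was higher in m-stamen, at 175, 167 and 168 against 59.2, 56.4 and 54.7 FPKM (log2 fold change -2.07 ± 0.06).

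Of 180 tested cytosolic ribosomal proteins, 95 (52.8%) were higher in F-carpel and 6 (3.33%) in m-stamen, with a median log2 fold change of 1.08. Under library totals the counts were 146 and 5. L26-1 (LITCHI007059) was at 839, 931 and 885 FPKM in F-carpel and 247, 250.3 and 249 FPKM in m-stamen (log2 fold change 1.34 ± 0.07). Less abundant genes were higher in m-stamen: L12 (LITCHI024676) at 90.1, 89.8 and 93.3 against 41.4, 44.5 and 44.4 FPKM and L37a (LITCHI025312) at 31.9, 31.7 and 32.3 against 14.5, 14.6 and 16.1 FPKM.

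Regulators of carpel and ovule form were tested next. Of 17 tested loci 8 (47.1%) were higher in F-carpel and 1 (5.88%) in m-stamen (9 and 0 under library totals), with a median log2 fold change of 0.77. Over all loci tested the shares were 23.4% and 24.6%. The corepressor LEUNIG (LITCHI016693), which represses AGAMOUS outside the inner organs in Arabidopsis, was at 33.3, 35.4 and 33.7 FPKM in F-carpel and 4.14, 4.15 and 4.71 FPKM in m-stamen (log2 fold change 2.49 ± 0.08). SPATULA, a bHLH factor of the style and septum in Arabidopsis, had 2 copies: LITCHI010952 was at 8.52, 9.2 and 7.45 against 0.375, 0.332 and 0.319 FPKM (log2 fold change 4.12 ± 0.18), and LITCHI006903 was at 13.2, 14.1 and 13.2 against 12.7, 12.3 and 13 FPKM and was not called (log2 fold change -0.40 ± 0.09, 0.08 under library totals). BEL1 (LITCHI022058), a homeobox gene of the ovule integument in Arabidopsis, was higher in m-stamen at 10.4, 14.8 and 15.2 against 6.66, 9.2 and 9.09 FPKM, which was -0.71 and not called under library totals. A further ANT locus (LITCHI010784) was at 36.5, 37.2 and 36.8 FPKM in F-carpel, and its means in the other 5 organs were 0.148 to 0.889 FPKM (log2 fold change to m-stamen 7.45 ± 0.32).

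YABBY factors mark the abaxial side of lateral organs. Of 7 tested, 5 (71.4%) were higher in F-carpel and 1 (14.3%) in m-stamen, beside 23.4% and 24.6% of all loci tested. YABBY 1 copies LITCHI022829 and LITCHI025508 were at 145, 141 and 133 and 107, 109 and 124 FPKM in F-carpel and 9.59, 8.23 and 9.01 and 0.79, 0.929 and 1.75 FPKM in m-stamen (log2 fold changes 3.48 ± 0.10 and 6.11 ± 0.35), and YABBY 5 (LITCHI016604) was at 26.9, 22.3 and 26.9 FPKM in m-stamen and 9.63, 5.92 and 7.28 FPKM in F-carpel. Of 100 tested homeobox factors, 42 (42%) were higher in F-carpel and 23 (23%) in m-stamen (48 and 14 under library totals). ATHB-6 (LITCHI007264) led on the F-carpel side, at 168, 159.8 and 173 against 47.6, 47.7 and 45 FPKM, and ROC2 (LITCHI019575), an epidermal type of homeobox factor, was at 76.5, 76.3 and 73.8 FPKM in m-stamen and 0.128, 0.673 and 0.376 FPKM in F-carpel (log2 fold change -7.95 ± 0.30).

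Among the other families of transcription factors, more loci were higher in m-stamen: 42 against 27 of 124 MYB factors, 25 against 10 of 72 NAC factors, 22 against 10 of 58 WRKY factors and 27 against 14 of 75 ERF and AP2 factors. The shares higher in m-stamen were 33.9%, 34.7%, 37.9% and 36.0%, beside 24.6% of all loci tested. Those higher in F-carpel were 21.8%, 13.9%, 17.2% and 18.7%, beside 23.4%. For MYB and WRKY factors the order turned under library totals (30 in m-stamen against 35 in F-carpel, and 12 against 13). For NAC factors it was 21 against 16, and for ERF and AP2 factors 20 against 17. A locus annotated as MYB305 (LITCHI020546), a flower gene in snapdragon, was at 449, 433 and 475 FPKM in m-stamen and 106, 103 and 107 FPKM in F-carpel (log2 fold change -2.59 ± 0.05), and NAC56 (LITCHI013210) at 183, 185 and 184 and 6.79, 5.6 and 7.07 FPKM (log2 fold change -5.31 ± 0.07). The 2 MYB3 copies LITCHI026844 and LITCHI030248 were at 48, 52 and 53.1 and 38.9, 34.3 and 36.2 FPKM in F-carpel and at 0.26, 0.665 and 0.617 and 0.727, 0.385 and 0.267 FPKM in m-stamen (log2 fold changes 6.12 ± 0.27 and 5.78 ± 0.27). NAC43 (LITCHI021813), a regulator of secondary walls in Arabidopsis, was at 5.94, 4.93 and 4.36 against 0.174, 0.294 and 0.133 FPKM. Of 80 bHLH factors 23 (28.8%) were higher in F-carpel and 26 (32.5%) in m-stamen (35 and 22 under library totals).

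In metabolism, 24 of 62 tested loci of flavonoid synthesis (38.7%) were higher in F-carpel and 12 (19.4%) in m-stamen. Besides chalcone synthase 2, leucoanthocyanidin dioxygenase (LITCHI022925), which forms anthocyanidins, was high in F-carpel, at 503, 555 and 478 against 11.1, 9.96 and 10.1 FPKM (log2 fold change 5.13 ± 0.09, FDR = 1.6e-18). Other enzymes of the same list were nearly limited to m-stamen of the pair: a flavonoid 3-O-glucosyltransferase (LITCHI009545) at 143, 151 and 147 against 2.02, 0.644 and 1.42 FPKM and a flavonoid 3'-monooxygenase (LITCHI002550) at 83, 84.7 and 84.3 against 0.671, 0.88 and 0.488 FPKM. The monooxygenase was also low in F-stamen, with a mean of 0.574 FPKM, and high in M-stamen (102 FPKM), whereas the glucosyltransferase reached 119 FPKM in F-stamen. Of 93 lignin and phenylpropanoid loci 24 (25.8%) were higher in F-carpel and 21 (22.6%) in m-stamen (34 and 17 under library totals). These shares were near the 23.4% and 24.6% of all loci tested. Cinnamate 4-monooxygenase (LITCHI031057), an early step of the pathway, and laccase-9 (LITCHI011565), of the enzymes that polymerize lignin, were at 559, 597 and 546 and 269, 273 and 269 FPKM in F-carpel and 71, 72.8 and 69.6 and 12.7, 13.3 and 12.9 FPKM in m-stamen, while cinnamyl alcohol dehydrogenase 1 (LITCHI001532) was at 427, 429 and 457 FPKM in m-stamen and 10.6, 10.7 and 9.06 FPKM in F-carpel (log2 fold change -5.92 ± 0.08).

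Of 53 tested loci of photosynthesis, 25 (47.2%) were higher in F-carpel and 5 (9.43%) in m-stamen (31 and 3 under library totals), with a median log2 fold change of 1.23. The light-harvesting protein CP26 (LITCHI012016) was at 137, 141 and 139.8 FPKM in F-carpel and 16.8, 15.8 and 14.2 FPKM in m-stamen, and a Rubisco small subunit (LITCHI016391) at 209.9, 225 and 192 and 44.6, 42.7 and 48.7 FPKM. A subunit of photosystem I (LITCHI021604) was higher in m-stamen, at 106, 104 and 110.4 against 32.7, 37.5 and 33.5 FPKM (log2 fold change -2.11 ± 0.11). Among the 5, LITCHI023455 carries the Swiss-Prot name of a light-harvesting protein, but its NR annotation and the study's list name it a MADS-box gene, LcMADS74. Of 66 tested heat shock loci 16 (24.2%) were higher in F-carpel and 15 (22.7%) in m-stamen (21 and 12 under library totals). These shares were near the 23.4% and 24.6% of all loci tested. Of 19 tested lectins 5 (26.3%) were higher in F-carpel and 8 (42.1%) in m-stamen (5 and 5 under library totals).

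**Figure D4:**
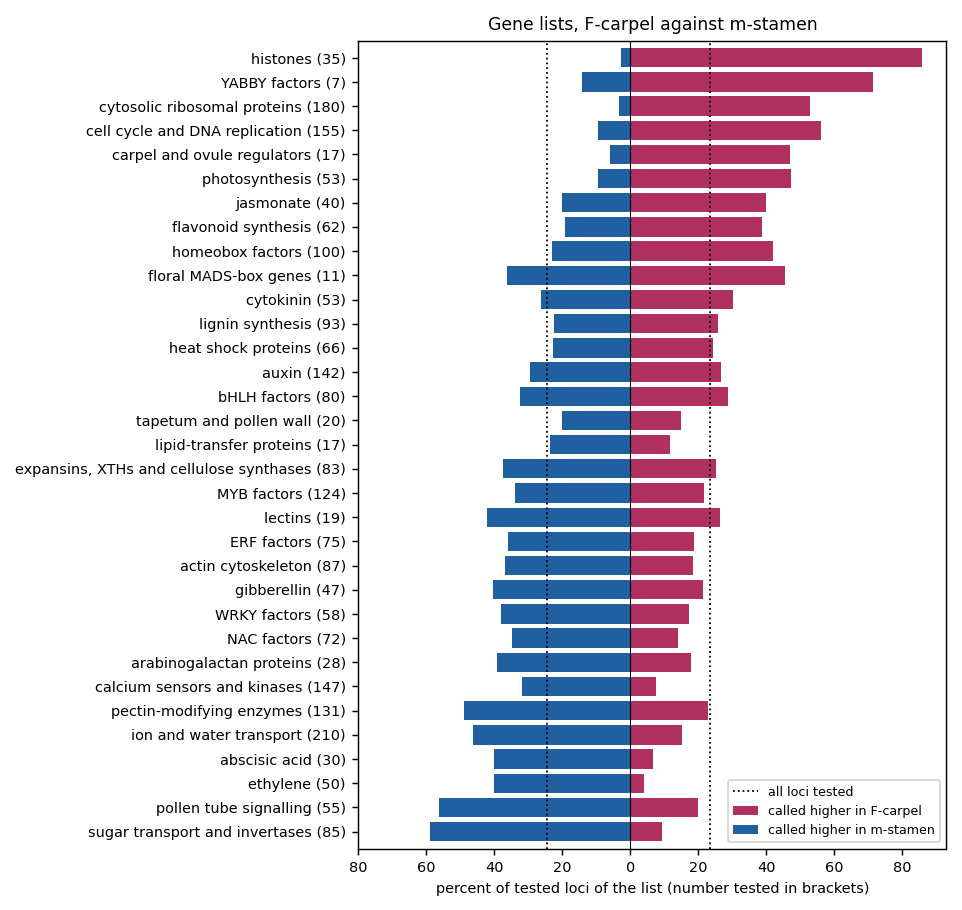
For each of the 33 gene lists, the percent of tested loci called higher in F-carpel (red, to the right) and in m-stamen (blue, to the left), with dotted lines at the percent over all loci tested (23.4% and 24.6%). Histones reach furthest to the right and sugar transport and invertases furthest to the left; the number of tested loci stands in brackets.

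Of 142 tested auxin loci, 38 (26.8%) were higher in F-carpel and 42 (29.6%) in m-stamen, near the 23.4% and 24.6% of all loci tested (55 and 37 loci under library totals). Aux/IAA proteins are repressors of auxin response. Those named as auxin-responsive protein IAA counted 10 higher in F-carpel and 2 in m-stamen of 22. Among them, IAA8 (LITCHI010729) was at 309, 297 and 305 against 76.8, 77.8 and 79 FPKM. AUX28 (LITCHI026127), an Aux/IAA protein by its NR annotation, lies outside that count. It was higher in m-stamen, at 397, 401 and 427 against 113, 120.3 and 108 FPKM (log2 fold change -2.33 ± 0.07). Auxin response factor 6 (LITCHI020889) was higher in F-carpel, at 87.7, 86.2 and 85.7 against 26.4, 30 and 28.9 FPKM. For gibberellin, 19 of 47 (40.4%) were higher in m-stamen and 10 (21.3%) in F-carpel (19 and 16 under library totals). Gibberellin 3-beta-dioxygenase 1 (LITCHI017070), which makes active gibberellin, was at 20.5, 19.3 and 19 FPKM in m-stamen and 0.454, 1.05 and 0.9 FPKM in F-carpel, while gibberellin-regulated protein 14 (LITCHI017978) was at 301, 361 and 329 FPKM in F-carpel and 19.9, 22.2 and 23 FPKM in m-stamen. For cytokinin, 16 of 53 (30.2%) were higher in F-carpel and 14 (26.4%) in m-stamen (23 and 13 under library totals). Here 2 receptors differed in opposite directions. Histidine kinase 4 (LITCHI005934) was at 34.4, 33.3 and 32.9 FPKM in F-carpel against 5.41, 4.72 and 5.83 FPKM in m-stamen. Histidine kinase 3 (LITCHI004641) was at 28.9, 26.9 and 31 FPKM in F-carpel against 55, 56.3 and 56.1 FPKM in m-stamen (-0.96 and not called under library totals).

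For ethylene, 20 of 50 tested loci (40%) were higher in m-stamen and 2 (4%) in F-carpel (12 and 8 under library totals). Over all loci tested the shares were 24.6% and 23.4%. ACC oxidases make ethylene, and LITCHI029670 was at 150.0, 147 and 157 against 11.3, 12.5 and 10 FPKM (log2 fold change -4.23 ± 0.08). Both loci higher in F-carpel, LITCHI029993 and LITCHI015355, carry the Swiss-Prot name of ACC oxidase homologues. They were at 3.6, 3.68 and 4.15 and 1.04, 1.64 and 1.38 FPKM in F-carpel. The NR annotation of LITCHI029993 names a different protein, the zinc finger protein VAR3. For abscisic acid, 12 of 30 (40%) were higher in m-stamen and 2 (6.67%) in F-carpel (9 and 4 under library totals). NCED1, the rate-limiting enzyme of abscisic acid synthesis, had 2 loci that differed in opposite directions: LITCHI028785 was at 315, 319 and 322 FPKM in m-stamen and 57.6, 57 and 58.2 FPKM in F-carpel (log2 fold change -2.96 ± 0.05), and LITCHI012579 at 0.146, 0.254 and 0.116 and 5.81, 5.26 and 5.79 FPKM (log2 fold change 4.51 ± 0.24). For jasmonate, 16 of 40 (40%) were higher in F-carpel and 8 (20%) in m-stamen (17 and 5 under library totals). The median log2 fold change of the jasmonate list was -0.01, beside 0.00 over all loci. Allene oxide cyclase (LITCHI005484) was at 157, 169 and 151 FPKM in F-carpel and 34.1, 33.1 and 32.4 FPKM in m-stamen (log2 fold change 1.77 ± 0.07), while allene oxide synthase 3 (LITCHI001739), which acts just before it, was at 0.446, 0.313 and 0.54 and 90.9, 99.4 and 96.2 FPKM (log2 fold change -8.24 ± 0.14), and TIFY 5A (LITCHI028778), a jasmonate repressor, at 23, 22.2 and 23.1 and 137, 136 and 136 FPKM.

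The KOG classes of the table group the loci that carry one, and are read beside the 23.4% and 24.6% of all loci tested. Translation had 274 of 664 tested loci (41.3%) higher in F-carpel and 67 in m-stamen. Chromatin structure had 76 and 16 of 198, and replication, recombination and repair 145 and 46 of 386. On the other side, inorganic ion transport had 165 of 475 (34.7%) higher in m-stamen and 88 in F-carpel, and lipid transport and metabolism 202 (33.3%) and 94 of 607. Of 688 loci of vesicular traffic and secretion, 166 (24.1%) were higher in m-stamen, near the share over all loci, and 80 (11.6%) in F-carpel. For transcription the shares were 23.6% in F-carpel and 19.6% in m-stamen, and for protein turnover 21.6% and 20.1%, near or below those over all loci.

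F-carpel and m-stamen differ in organ and in flower type. Their log2 fold change is the sum of an organ part, the mean difference of carpel over stamen in the F and m flowers, and a flower-type part, the mean difference of F over m flower in both organs. The organ part was called for 8312 loci (33.7%) and the flower-type part for 6501 (26.4%); both share libraries with the main comparison. In loci called higher in m-stamen the organ part was the larger of the 2 in 68.6%, with a median of -1.78 against -0.80 for the flower-type part. In those higher in F-carpel it was the larger in 45.6%, with medians of 1.00 and 1.10. A locus raised in F-carpel alone enters both parts, so a part need not be shared by both flower types or both organs. H2A.6 (LITCHI024849) had parts of 2.80 and 2.50. Its means were 1134 FPKM in F-carpel and 38.6, 43.8 and 20.5 FPKM in F-stamen, m-carpel and m-stamen. An organ part of at least 5 in size was found in 1498 loci higher in m-stamen and 99 higher in F-carpel, and a flower-type part of that size in 44 and 268.

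Single genes show the 2 patterns. Pectinesterase 50 (LITCHI020207) had an organ part of -7.29 ± 0.07 and a flower-type part of -1.15 ± 0.06, and LcPI (LITCHI011302) -7.10 ± 0.11 and -0.54 ± 0.10. YUCCA2 (LITCHI006663) was reversed in this respect, with -2.78 ± 0.56 and -7.65 ± 0.31: its mean was 30.6 FPKM in m-stamen, 1.26 in m-carpel, 0.0435 in F-stamen and 0.0288 in F-carpel. On the F-carpel side, Cyclin-D3-1 (LITCHI001557) had 3.68 ± 0.44 and 8.91 ± 0.25, with a mean of 5.82 FPKM in F-stamen and 0.138 FPKM in m-carpel. Chalcone synthase 2 (LITCHI015108) had 3.39 ± 0.04 and 0.84 ± 0.04, and LcSEP4 (LITCHI023328) 3.31 ± 0.06 and -1.27 ± 0.06, of opposite sign. By list, the median organ and flower-type parts were 0.15 and 1.04 for the cell cycle, 1.27 and 1.73 for histones, 1.27 and 0.19 for photosynthesis and -1.49 and -0.17 for pectin-modifying enzymes.

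**Figure D5:**
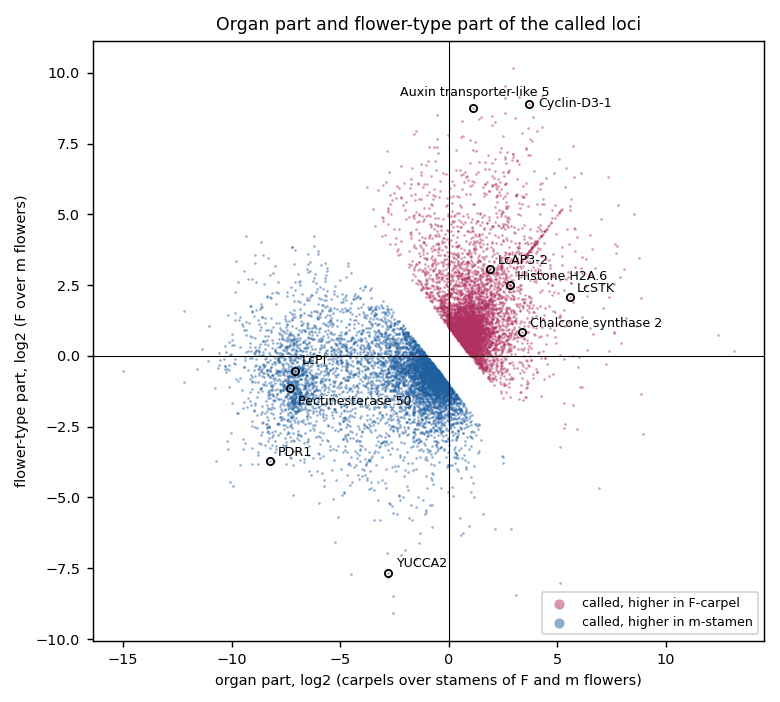
Organ part (horizontal, log2) against flower-type part (vertical, log2) of the 11833 called loci; the sum of both is the log2 fold change, so calls leave an empty diagonal band. Loci higher in m-stamen (blue) spread to large negative organ parts at small flower-type parts, as Pectinesterase 50 does, and loci higher in F-carpel (red) spread upward, as Cyclin-D3-1 does.

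The capital M flower gives a carpel and a stamen in libraries outside the contrast of F-carpel with m-stamen, although all 18 libraries shared 1 fit, with its scaling, filter and estimate of the spread. Between M-carpel and M-stamen 6575 loci (26.7%) were called, 2708 (11%) higher in M-carpel and 3867 (15.7%) higher in M-stamen. Of the 6065 loci called higher in m-stamen, 80.3% were higher in M-stamen than in M-carpel by sign and 43.5% were called so, beside 50.5% and 15.7% of all loci tested. Of the 5768 loci called higher in F-carpel, 70.0% were higher in M-carpel by sign and 22.1% were called so, beside 48.5% and 11%. Taken by list in the M flower, for the cell cycle 12 loci were called higher in M-carpel and 46 in M-stamen, for photosynthesis 1 and 10, and for histones 2 and 2. For pectin-modifying enzymes the counts were 8 and 62 and for sugar transport 7 and 39. WRKY factors, 10 and 22 in F-carpel and m-stamen, counted 32 in M-carpel and 2 in M-stamen. Beside these values, the 21 pollen markers summed to 156 to 171 FPKM in M-carpel and 2425 to 2743 FPKM in M-stamen, and the green tissue list summed to 139 to 146 FPKM in M-carpel and 315 to 377 FPKM in M-stamen. The part of either in these differences was not tested.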

How the data were processed

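Total RNA of the 6 organs was made into NEBNext Ultra libraries and sequenced as Illumina pairs. Per the study's methods and the submitters' processing notes, reads were trimmed (Trimmomatic) and freed of ribosomal RNA by the authors, then aligned with HISAT2 2.0.4 and assembled with StringTie. The sources used here give neither the genome build nor the use of strand, so reads of overlapping and antisense genes cannot be told apart. The deposited read counts per gene model are raw, and the authors' FPKM values are normalized for length and library size. Columns of the authors' own comparisons (fold changes and FDR) were not used, and 0 columns lacked a sample.

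Counts were summed over the models of a locus (37401 models, 34024 loci). All 18 libraries, 3 per organ, entered 1 edgeR 4.0.16 quasi-likelihood fit in R 4.3.3 (TMM scaling, filterByExpr by organ, 24666 loci tested, Benjamini-Hochberg adjustment). Calls needed an FDR under 0.01 with a log2 fold change of 1 or more in size. Standard errors are the fold change over the square root of F. The script was tested on simulated data. The loci named are the 10 largest rises and falls at a mean of at least 32 CPM, the 5 most abundant called loci of each organ, the floral LcMADS genes, the 2 most abundant called members per list and direction, and the markers; genes outside this rule are marked. The members and the 33 lists were chosen with earlier results of these data known. Lists match protein names in the annotation. Depth was 25689398 to 32302522 counts per library, at which 3 counts correspond to 0.0929 to 0.117 CPM (counts scaled to library size); intervals and floors cover counting error only. Alternatives were other scalings, filters, thresholds, DESeq2 1.42.0, limma 3.58.1 on log2(FPKM + 1) and log2(FPKM + 0.1), a replicate block, unsummed models and leaving out single libraries.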

Additional observations from a re-analysis of the deposited data

How the results depend on the processing

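With TMM scaling 11833 loci were called, DESeq2 called 12056, and leaving out 1 library at a time gave 11325 to 11897 (5492 to 5889 higher in F-carpel, 5744 to 6108 in m-stamen). Without the loci uneven among replicates, an alternative chosen after seeing the data, 11829 were called. A mean of at least 5 CPM left fewer loci to test and gave 7773 calls, 3682 of them higher in m-stamen. With that filter the organ part counted 4647 (2068 and 2579 on the carpel and stamen side), the flower-type part 4184 (2426 and 1758 on the F and m side) and M-carpel against M-stamen 4038 (1595 and 2443). A minimum log2 fold change of 3 gave 4395 (1727 and 2668). limma on log2(FPKM + 1) called 3462 loci higher in m-stamen, 3021 on the stamen side of the organ part, 1104 on the m side of the flower-type part and 2560 higher in M-stamen; log2(FPKM + 0.1) gave 5902 on the F side of the flower-type part, and library totals 1752 on its m side. Single omissions gave 8147 to 8462 for the organ part, 6295 to 6507 for the flower-type part and 6200 to 6605 for the M flower.

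Under library totals, log2(FPKM + 1) and log2(FPKM + 0.1), in that order, 6 loci that were not called changed sign: LcAG (LITCHI028933) to 0.16, 0.18 and 0.18, LcSEP1 (LITCHI019333) to 0.12, 0.14 and 0.14, LcActin (LITCHI007623) to 0.17, 0.19 and 0.19, SPATULA (LITCHI006903) to 0.08, 0.09 and 0.09, a polyketide synthase (LITCHI001958) to 0.26, 0.26 and 0.27, and a chlorophyll a-b binding protein (LITCHI000053) to 0.08, 0.08 and 0.09. These scalings hold F-carpel 0.48 higher on the log2 scale.

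Replicate numbers are shared between organs. Deviations of same-numbered F-carpel and m-stamen libraries had correlations of -0.000133, 0.0147 and 0.0217. These organs come from different flower types, so the values do not tell whether organs of the same flower type were paired, which was not tested. A replicate block gave 11536 calls (5602 and 5934).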
